A study of Homo sapiens with 4 samples.

Results

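The RAS, RAF, MEK, and ERK proteins form the core cascade through which receptor tyrosine kinases such as RET signal to the nucleus. The 7 genes described here are *HRAS*, *NRAS*, *ARAF*, *BRAF*, *MAP2K1*, *MAP2K2*, and *MAPK3*, which were chosen by their symbols from the 20372 genes of the deposited table, and all 7 were abundant enough to be tested. Active RAS binds GTP and recruits a RAF kinase to the membrane, RAF phosphorylates the MEK kinases, and MEK phosphorylates ERK. These steps are switched mostly by GTP loading and phosphorylation, which RNA counts do not measure. In papillary thyroid cancer the cascade is usually driven by a single alteration in RET, BRAF, or a RAS gene.

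TPC1, a human cell line established from a papillary thyroid carcinoma, carries a CCDC6-RET fusion, and BLU6864 is a selective RET inhibitor. RNA of TPC1 cells was sequenced after 6 h or 24 h of BLU6864, with 2 libraries at each time point, and the study asked how the cells adapt to RET inhibition between these times. All 4 libraries come from 1 cell line and all received the inhibitor. Vehicle-treated cells were not analysed here, so the effect of the drug and of time in culture cannot be told apart. The labels give a dose of 100 µM and 50 bp single-end reads, whereas the methods give 100 nM and paired-end sequencing for 100 cycles. The 24 h libraries carry the word re-analysis in their labels and the 6 h libraries do not. What it refers to is not given in the labels. Any difference in handling or processing tied to it cannot be told apart from time.

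Between 23917056 and 27457040 reads were counted per library. Libraries of the same time were compared gene by gene, and the chi-square per gene was 10.5 at 6 h and 7.96 at 24 h, above the 1 of pure sampling, so each was counted as a replicate. The labels do not say whether they came from separate cultures, so P values measure only the spread between libraries. Of 7 thyroid markers, *PAX8* had at least 19124 counts in every library, whereas *NKX2-1* and *TSHR* had 0. The 4 white blood cell markers had at most 5 counts in any library.

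By edgeR's quasi-likelihood test (adjusted P under 0.05), 4 of the 7 genes had risen and 2 had fallen by 24 h. The 24 h libraries did not overlap the 6 h libraries in any of the 7, which also held for 81.8% of all genes tested. The same test called 33.0% of the 12876 genes tested higher, 32.6% lower, and 65.6% in either direction, so a call was common. In this fit the share called higher was larger among the 7 genes than in all genes, and the share lower was similar. The larger share depended on the fit. When each library's trend on GC content and length was removed, 2 of the 7 were higher, next to 4214 of 12566 genes in all. With scaling by library size alone, 2 of the 7 were higher, next to 3874 of 12876. Whether the 7 genes differ from all genes in these shares was not tested. *MAP2K1*, which encodes MEK1, had the largest change of the 7 and fell by 36.4%, while *MAP2K2*, which encodes MEK2, did not pass the test. *NRAS*, *HRAS*, *ARAF*, and *MAPK3* rose by between 14.2% and 22.8%, and *BRAF* fell by 16.6%. The median log2 fold change, in which positive values are higher at 24 h, was 0.19 over the 7 genes and 0.0029 over all genes tested. The median size of the change was 0.26 in the 7 genes and 0.37 in all genes. In bulk RNA, a lower count may reflect fewer cells that express a gene or less RNA per cell, and these cannot be told apart. The study's methods name a fall of more than 0.5 on the log2 scale and an unadjusted P under 0.01, with DESeq2. Here these cutoffs were taken in both directions and applied to edgeR as well. With them edgeR called 1 gene lower (*MAP2K1*) and 0 higher, against 17.7% and 17.4% of all genes. At an unadjusted P under 0.05 edgeR called 4 higher, and DESeq2 called 0 higher with the study's cutoffs.

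**Figure D1:**
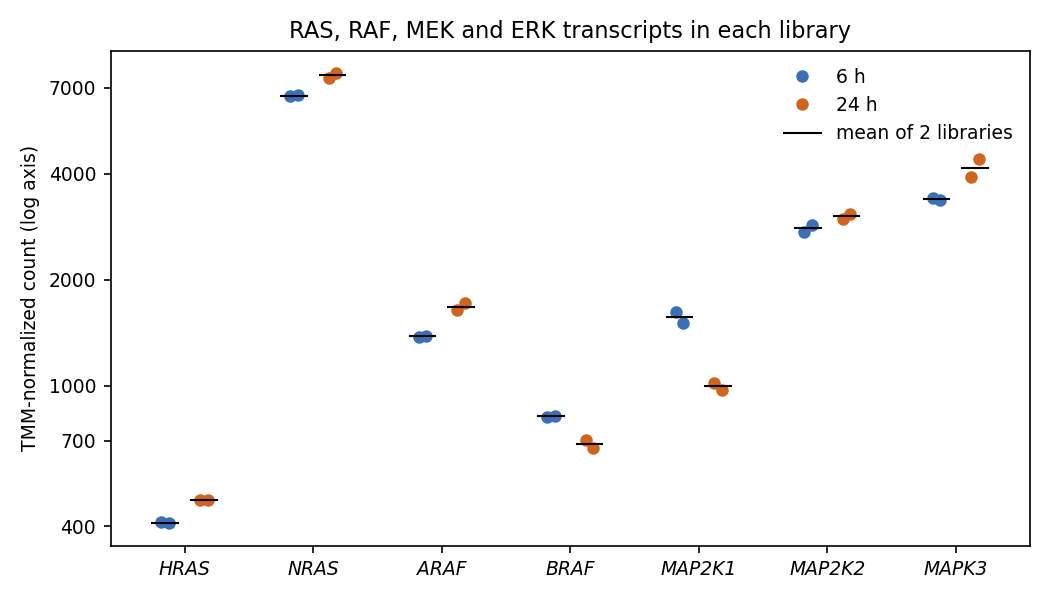
Normalized counts of the 7 genes on a log axis, with 1 point per library, 6 h in blue and 24 h in orange, and a line at the mean of 2 libraries. The 6 h and 24 h points are apart in all 7 genes, and *MAP2K1* shows the widest step, from 1567 to 997.

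*HRAS* and *NRAS* encode small GTPases that differ mainly in their C-terminal tails, which decide where in the cell membrane they sit. *HRAS* (ENSG00000174775, chromosome 11 from 532242 to 537287 in hg19) had 410 and 408 normalized counts at 6 h, and 474 and 475 at 24 h. The 24 h pair lay wholly above the 6 h pair, as in 41.0% of all genes tested. The log2 fold change was 0.21 (standard error 0.094, 95% interval from 0.02 to 0.41), with an edgeR adjusted P of 0.0474. This call was lost in 9 of 12 alternative fits, including DESeq2 (adjusted P = 0.213) and all 4 fits that left out a library (adjusted P from 0.0901 to 0.143).

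*NRAS* (ENSG00000213281, chromosome 1 from 115247090 to 115259515) was far more abundant, with 6644 and 6671 normalized counts at 6 h and 7496 and 7708 at 24 h. The 24 h libraries were again the higher pair. Its log2 fold change was 0.19 (standard error 0.0717, 95% interval from 0.04 to 0.34), with an edgeR adjusted P of 0.0216. Without 24 h replicate 1 the adjusted P was 0.0534, without 24 h replicate 2 it was 0.118, and with scaling by library size alone it was 0.0713. *HRAS* had from 0.0611 to 0.0633 reads for each *NRAS* read in all 4 libraries, a ratio that did not separate the time points (difference in log2 ratio 0.02, two-sided exact permutation P = 0.667). With 2 libraries against 2, this exact test cannot give a P under 0.333.

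*ARAF* and *BRAF* encode RAF kinases, of which BRAF has the higher basal activity toward MEK. *ARAF* (ENSG00000078061, chromosome X from 47420516 to 47431307) had 1380 and 1388 normalized counts at 6 h and 1644 and 1714 at 24 h. The 24 h libraries lay above the 6 h libraries by more than the spread of either pair. The log2 fold change was 0.28 (standard error 0.0705, 95% interval from 0.13 to 0.42, edgeR adjusted P = 0.00117), and it passed the test in all 12 alternative fits.

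*BRAF* (ENSG00000157764, chromosome 7 from 140419127 to 140624564) moved the other way, with 818 and 822 normalized counts at 6 h and 703 and 666 at 24 h. The 24 h pair lay wholly below the 6 h pair, as in 40.8% of all genes tested. Its log2 fold change came to -0.26, with a standard error of 0.0827, a 95% interval from -0.43 to -0.09, and an edgeR adjusted P of 0.00739. Without 24 h replicate 2 it was -0.21 and the adjusted P was 0.0687, and with DESeq2 the adjusted P was 0.0496. The end of *BRAF* overlaps *NDUFB2*, a subunit of mitochondrial complex I, over 3464 bp, and *NDUFB2* moved by 0.24 on the log2 scale, in the opposite direction (edgeR adjusted P = 0.00657). The study's methods name a stranded library kit and the labels do not mention strand, and whether the counting used strand is not given in the sources used here, so how reads from this stretch were assigned is not known.

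The libraries had 1.69 and 1.69 *ARAF* reads for each *BRAF* read at 6 h, and 2.34 and 2.57 at 24 h. The mean log2 ratio went from 0.75 ± 0.00147 (SD, n = 2) to 1.29 ± 0.0987, a difference of 0.54. A ratio within a library does not depend on how libraries are scaled. The 24 h values were both above the 6 h values, and the two-sided exact permutation P was 0.333, the smallest this design allows.

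*MAP2K1* and *MAP2K2* encode MEK1 and MEK2, the dual-specificity kinases that phosphorylate ERK. *MAP2K1* (ENSG00000169032, chromosome 15 from 66679155 to 66784650) had 1623 and 1511 normalized counts at 6 h, from 1503 and 1575 raw reads. At 24 h it had 1020 and 973 normalized counts, from 1024 and 1000 raw reads. The gap between the time points was several times the spread of either pair. The log2 fold change was -0.65 (standard error 0.0742, 95% interval from -0.80 to -0.50), with an edgeR adjusted P of 1.85e-08. It passed the test in all 12 alternative fits, with values between -0.71 and -0.60. Of all genes tested, 28.1% had a larger change in either direction. The last 2178 bp of *MAP2K1* overlap *SNAPC5*, a subunit of the small nuclear RNA activating complex, whose log2 fold change was 0.01 (edgeR adjusted P = 0.937).

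*MAP2K2* (ENSG00000126934, chromosome 19 from 4090319 to 4124126) had 2726 and 2868 normalized counts at 6 h and 2979 and 3070 at 24 h. The 24 h libraries were the higher pair, but the gap between the nearest libraries was narrower than the spread of the 6 h pair. The log2 fold change was 0.11 (standard error 0.0703, edgeR adjusted P = 0.162), and its 95% interval from -0.03 to 0.26 includes no change as well as a rise of up to 1.20-fold. For each *MAP2K1* read there were 1.68 and 1.90 *MAP2K2* reads at 6 h and 2.92 and 3.15 at 24 h. The mean log2 ratio went from 0.84 ± 0.124 (SD, n = 2) to 1.60 ± 0.079, a difference of 0.77. This was the largest shift among the 3 paralog pairs, with a two-sided exact permutation P of 0.333, the smallest possible.

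**Figure D2:**
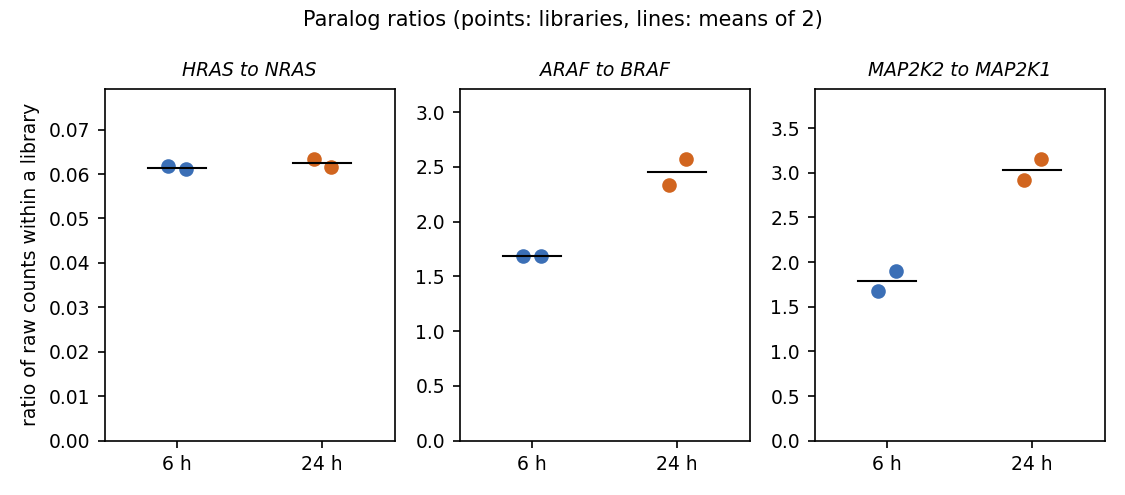
Ratio of raw counts of paralogs within each library, on linear axes from 0, with 1 point per library and a line at the mean of 2. The *HRAS* to *NRAS* values overlap between 6 h and 24 h, whereas *ARAF* to *BRAF* and *MAP2K2* to *MAP2K1* are higher at 24 h in both libraries.

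*MAPK3* encodes ERK1, the kinase at the end of the cascade. *MAPK3* (ENSG00000102882, chromosome 16 from 30125426 to 30134827) had 3405 and 3360 normalized counts at 6 h and 3913 and 4393 at 24 h. The 24 h libraries were both higher, and they differed from each other by nearly as much as the lower one did from the 6 h pair. The log2 fold change was 0.30 (standard error 0.0736, 95% interval from 0.15 to 0.45), with an edgeR adjusted P of 0.000977. It ranged from 0.22 without 24 h replicate 2 to 0.38 without 24 h replicate 1, and both passed the test.

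Several of the log2 fold changes above shifted when a trend on GC content and length was removed. GC content and length were removed together, so the shifts cannot be assigned to GC content alone. Whether the changes of these genes go with their GC content was not tested. In the longest protein-coding transcript of GENCODE v44, GC content was 66.1% for *HRAS*, 65.4% for *MAP2K2*, 61.4% for *MAPK3*, and 59.0% for *ARAF*. It was 51.0% for *MAP2K1*, 40.7% for *BRAF*, and 37.4% for *NRAS*. When each library's trend on GC content and length was removed, the log2 fold change of *HRAS* was 0.09 (edgeR adjusted P = 0.368) and that of *MAPK3* was 0.12 (adjusted P = 0.114), so neither passed. That of *MAP2K2* turned to -0.03 (adjusted P = 0.667). *ARAF* kept its call with a log2 fold change of 0.15 (adjusted P = 0.0406), and *NRAS* moved up to 0.48 (adjusted P = 7.88e-07). The changes of *MAP2K1* and *BRAF* were -0.66 and -0.24, close to their values above. The same correction gave a change in log2 ratio of 0.63 for *MAP2K2* to *MAP2K1*, 0.39 for *ARAF* to *BRAF*, and -0.39 for *HRAS* to *NRAS*.

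**Figure D3:**
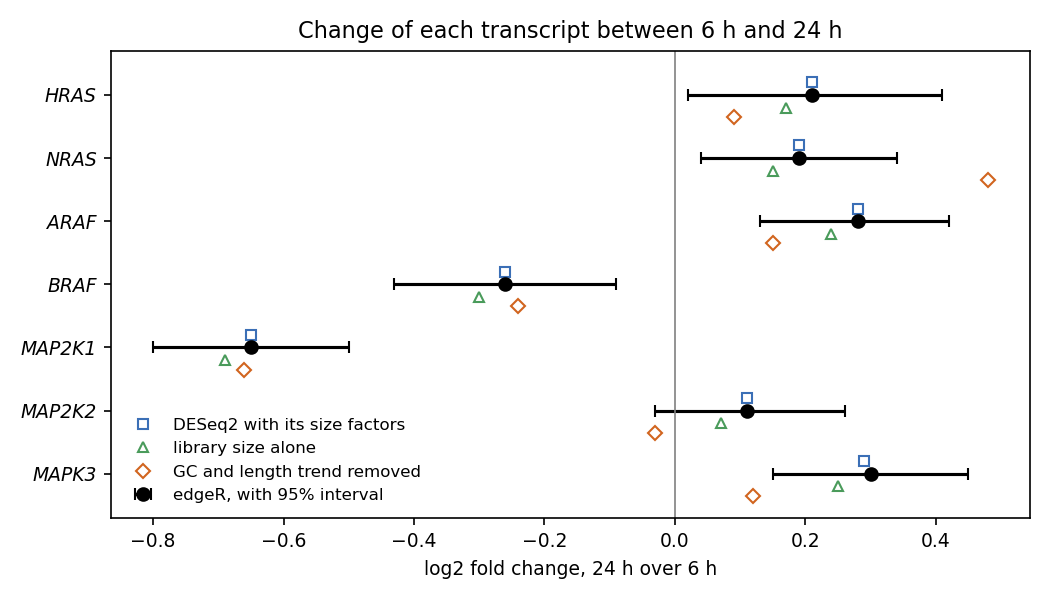
Log2 fold change of 24 h over 6 h for each gene. Black points are edgeR values with 95% intervals, and open symbols are DESeq2, library size scaling, and the fit with the GC and length trend removed. *MAP2K1* lies between -0.69 and -0.65 in all 4 fits shown, whereas *NRAS* and the GC-rich genes shift with the GC and length trend.

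Levels of different genes were compared as normalized counts per kilobase of the MANE Select transcript, the reference isoform of each gene. Lengths came from GENCODE v44, whereas reads were aligned to hg19, so they may not match the exons counted. These levels were not corrected for GC content. At 6 h the order was *MAPK3* with 1893 ± 17.8 (SD, n = 2), *MAP2K2* with 1619 ± 58.1, and *NRAS* with 1539 ± 4.28. Much lower came *MAP2K1* with 615 ± 30.9, *ARAF* with 582 ± 2.56, *HRAS* with 382 ± 1.64, and *BRAF* with 127 ± 0.43. *MAP2K2* and *NRAS*, and likewise *MAP2K1* and *ARAF*, were neighbours whose means differed by less than 1.5 times the larger SD. At 24 h *MAPK3* had 2324 ± 190 per kilobase, while *NRAS* (1757 ± 34.7) and *MAP2K2* (1751 ± 37.4) overlapped. *ARAF* then had 706 ± 20.8, *HRAS* 444 ± 0.435, *MAP2K1* 391 ± 13.1, and *BRAF* 106 ± 4.13. By these lengths *MAP2K1* went from the fourth place to the sixth, below *HRAS*. With the longest transcript in place of the MANE Select one, *MAP2K1* had 578 ± 29.1 (SD, n = 2) at 6 h, just under *ARAF*. At 24 h it then had 376 and 359, next to 376 and 377 for *HRAS*, so that its place below *HRAS* depends on the length used. *MAPK3* with the longest transcript ranked below *NRAS* and *MAP2K2* at both times. *BRAF* remained last with either length.

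**Figure D4:**
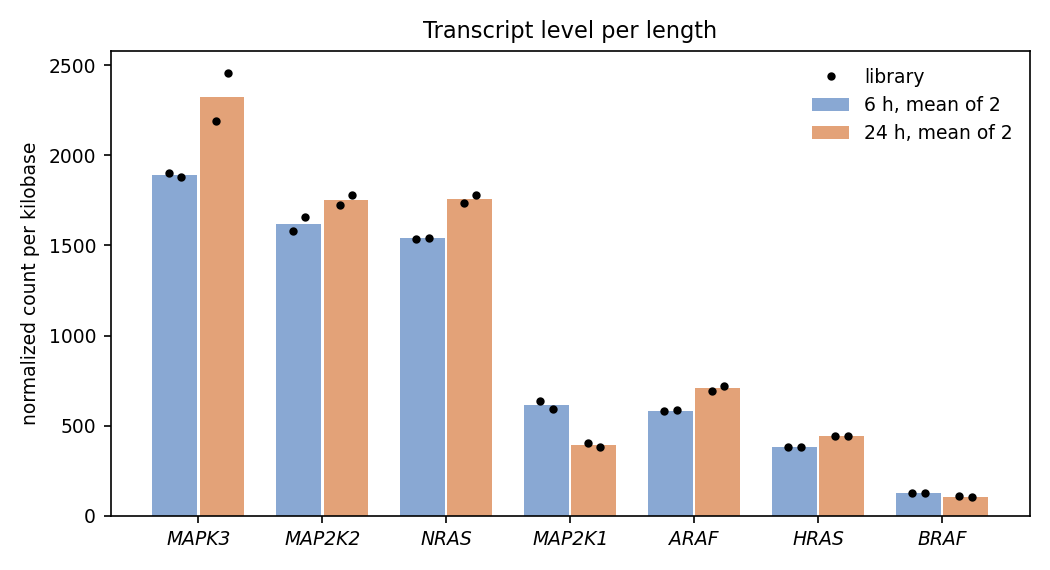
Normalized count per kilobase of the MANE Select transcript, with bars for the mean of 2 libraries from 0 and points for libraries. *MAPK3*, *MAP2K2*, and *NRAS* have means of at least 1539 at both times, and *BRAF* has the lowest, 127 and 106.

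The promoters of the pair of genes that fell, *MAP2K1* and *BRAF*, and of *MAP2K2*, the paralog that did not pass the test, are shown to compare their sequences. They run 5′ to 3′ from 250 bases before to 50 bases after the first start listed by RefSeq in GRCh38.p14. The window of *MAP2K1* is chr15:66386662-66386961 on the plus strand. That of *MAP2K2* is chr19:4124073-4124372 on the minus strand, and that of *BRAF* is chr7:140924219-140924518 on the minus strand. Capitals mark matches, on either strand, to the 8 motifs searched.
MAP2K1: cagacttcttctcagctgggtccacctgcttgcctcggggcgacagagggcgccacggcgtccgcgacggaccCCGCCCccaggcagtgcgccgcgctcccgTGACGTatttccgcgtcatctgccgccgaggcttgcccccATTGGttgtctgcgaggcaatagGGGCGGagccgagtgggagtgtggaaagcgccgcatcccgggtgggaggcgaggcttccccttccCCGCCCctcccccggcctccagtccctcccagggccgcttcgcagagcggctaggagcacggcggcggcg
MAP2K2: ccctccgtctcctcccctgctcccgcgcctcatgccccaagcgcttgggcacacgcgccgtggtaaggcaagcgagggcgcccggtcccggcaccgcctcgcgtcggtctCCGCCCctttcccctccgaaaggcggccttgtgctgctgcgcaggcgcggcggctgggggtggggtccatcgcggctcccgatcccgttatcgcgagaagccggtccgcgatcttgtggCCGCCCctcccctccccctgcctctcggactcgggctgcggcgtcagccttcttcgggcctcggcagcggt
BRAF: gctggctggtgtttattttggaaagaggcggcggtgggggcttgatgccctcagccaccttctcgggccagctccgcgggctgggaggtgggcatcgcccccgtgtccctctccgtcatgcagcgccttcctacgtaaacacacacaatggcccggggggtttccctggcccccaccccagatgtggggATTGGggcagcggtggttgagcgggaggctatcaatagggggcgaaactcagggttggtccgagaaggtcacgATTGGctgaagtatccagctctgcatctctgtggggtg

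The motifs were the ETS core CCGGAAG, the GC box GGGCGG, the E2F motif TTTGGCGC, the cAMP response element core TGACGT, the E-box CACGTG, the AP-1 motif TGANTCA, the CCAAT box, and the TATA box TATAAA, where N is any base. Both strands were searched, and TGACGT and CACGTG can share letters. *MAP2K1* held 3 GC boxes, 1 TGACGT, and 1 CCAAT, *MAP2K2* held 2 GC boxes, and *BRAF* held 2 CCAAT boxes. Of 35116 RefSeq promoters of the same length, 45.0% held a GC box, 34.6% a CCAAT box, and 7.98% a TGACGT. All 7 genes had a promoter entry. The ETS core, present in 10.3% of promoters, was found in *HRAS* and *NRAS*. The E-box, present in 7.26%, was found in *NRAS* and *MAPK3*. None of the 7 windows held the E2F, AP-1, or TATA letters, which occurred in 0.652%, 7.71%, and 11.5% of promoters. GC content of the window was 72.0% in *MAP2K1*, 73.7% in *MAP2K2*, and 63.0% in *BRAF*, against a median of 58.7%. A match describes letters and not a bound factor.

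The gene with the most similar pattern was sought among 10740 others with a mean normalized count of at least 100, by Euclidean distance between centred log2 counts over the 4 libraries. *MAP2K1* was closest to *EXOSC9*, a subunit of the RNA exosome (log2 fold change -0.67), at a distance of 0.0218, and *BRAF* was closest to *USP15*, a deubiquitinase (-0.26). *NRAS* was closest to *RALGDS*, a RAS effector (0.19), *ARAF* to *GTF3C6*, a subunit of the RNA polymerase III factor TFIIIC, *MAP2K2* to *SSSCA1*, and *MAPK3* to *GUCY1A2*, a subunit of soluble guanylate cyclase. Such patterns were common, since between 147 and 575 genes lay within a distance of 0.1 of each of the 7. The 147 belonged to *MAP2K1*.

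Beyond the core cascade, 128 genes in 10 lists that act on or beside it were examined. The lists were chosen with earlier results of these data known, so their shares beside those of all genes are descriptions. Whether any list differs from all genes was not tested. Among the 113 that could be tested, 36 rose and 35 fell, with a median log2 fold change of 0.06. Together these are a share close to the 65.6% of all genes called in either direction.

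The RAS family list holds other small GTPases related to RAS. Of 12 tested, 8 were lower and 2 higher, against 32.6% and 33.0% of all genes. The median log2 fold change was -0.28, against 0.0029 in all genes. The number lower was 6 with the GC and length trend removed. With the study's cutoffs it was 1, against 17.7% of all genes. *RHEB*, the activator of mTORC1, fell from 1932 ± 214 to 1204 ± 54.1 normalized counts (SD, n = 2), and *RAP2B*, a GTPase of the RAP branch, fell by 0.47 on the log2 scale (standard error 0.072). The pair that rose was *MRAS*, which joins SHOC2 in a phosphatase complex that activates RAF, and *RRAS2*. *MRAS* rose from 629 ± 10.8 to 1503 ± 36.8, or by 1.26 on the log2 scale (edgeR adjusted P = 1.02e-13). *RRAS2*, which shares many RAS effectors, rose from 10252 ± 41.5 to 16138 ± 181.

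Upstream, exchange factors and adaptors load RAS with GTP at activated receptors, and RAS-GAPs return it to the inactive state. Of 12 exchange factors and adaptors tested, 5 were higher and 1 lower, against 33.0% and 32.6% of all genes, with a median of 0.15. With the GC and length trend removed 8 were higher and 2 lower, and with library size alone or the replicate block 2 were also lower. *SHC1*, an adaptor that binds phosphorylated receptors, rose from 7918 ± 119 to 12308 ± 602 normalized counts (SD, n = 2). *RASGRF2*, a calcium-responsive exchange factor, rose by 0.59 on the log2 scale (standard error 0.0822), and *GAB2*, a docking protein, fell by 0.95 (standard error 0.102). Of 8 RAS-GAPs tested, 4 were higher and 0 lower by edgeR, against 33.0% and 32.6% of all genes. At an unadjusted P under 0.05 and with DESeq2 the number lower was also 0, but it was 1 with the replicate block and the GC and length trend removed. *RASA3* rose from 1382 ± 45.0 to 3024 ± 53.7 (log2 fold change 1.13, edgeR adjusted P = 1.54e-13), and *RASAL1* rose from 183 ± 31.4 to 340 ± 50.7.

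Enzymes of RAS lipid processing attach, trim, or remove the groups that hold RAS at membranes. Of 12 tested, 3 were higher and 4 lower, against 33.0% and 32.6% of all genes, with a median of 0.06. With the GC and length trend removed 5 were higher. The thioesterases *LYPLA1* and *LYPLA2* moved apart, with log2 fold changes of -0.67 (standard error 0.0722) and 0.47 (standard error 0.071). With the GC and length trend removed *LYPLA1* came to as little as -0.17 and still passed the test. *ICMT*, which methylates the RAS C terminus, fell from 3023 ± 42.7 to 2133 ± 34.2 normalized counts (SD, n = 2), and the depalmitoylase gene *ABHD17C* rose from 134 ± 11.9 to 235 ± 30.2.

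Among RAF regulators and scaffolds, 3 of 19 genes tested were higher and 5 lower, against 33.0% and 32.6% of all genes. The median was 0.04, and 11 did not pass. With the GC and length trend removed 5 were higher. *ARRB1*, a beta-arrestin that scaffolds RAF and ERK, had a log2 fold change of 0.52 and *LAMTOR1*, a late endosomal anchor, 0.33. *PAQR3*, which holds RAF at the Golgi, fell from 868 ± 4.1 to 557 ± 26.0 normalized counts (SD, n = 2), and *PPP5C*, a phosphatase of RAF, fell by 0.40 on the log2 scale. Of 7 genes for 14-3-3 proteins, which bind phosphorylated RAF, 2 were higher and 3 lower, against the same shares of all genes. *YWHAQ* had a log2 fold change of -0.56, *YWHAE* -0.33, *YWHAG* 0.27, and *YWHAH* 0.25, and *YWHAE* went to -0.12 (adjusted P = 0.149) with the GC and length trend removed.

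Of 8 other RAS effectors tested, 3 were higher and 2 lower, against 33.0% and 32.6% of all genes. With the GC and length trend removed only 1 was higher. *PLCE1*, a phospholipase, fell from 382 ± 26.1 to 171 ± 4.24 normalized counts (SD, n = 2), and *TIAM1*, an exchange factor for RAC, fell from 960 ± 21.1 to 557 ± 23.5. *RGL1*, an exchange factor for RAL, rose by 0.52 on the log2 scale and *RIN1*, an exchange factor for RAB5, by 0.36, but *RIN1* had 0.05 (adjusted P = 0.575) with the GC and length trend removed. Of 7 kinases that ERK activates, 3 were higher and 1 lower, against the same shares of all genes. The number higher was 5 without 24 h replicate 1 and 2 without 24 h replicate 2, and the number lower was 2 with the GC and length trend removed. The ribosomal S6 kinase genes *RPS6KA2* and *RPS6KA1* had log2 fold changes of 0.78 (standard error 0.0728) and 0.44 (standard error 0.0703), and *MKNK1*, which phosphorylates eIF4E, had -0.30.

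In the parallel MAPK modules, 4 of 14 genes tested were higher and 5 lower, against 33.0% and 32.6% of all genes. *MAP2K3*, an activator of p38, and *MAPK12*, a p38 kinase, rose by 0.63 and 0.61 on the log2 scale, whereas the p38 kinase gene *MAPK13* fell from 1729 ± 23.3 to 1084 ± 2.16 normalized counts (SD, n = 2). *MAPK6*, which encodes the atypical kinase ERK3, fell by 0.30, and had -0.08 (adjusted P = 0.262) with the GC and length trend removed. Of 14 other MAP3K genes, 7 were higher and 6 lower, against the same shares of all genes. *MAP3K8*, which encodes a kinase that can phosphorylate MEK in place of RAF, fell from 908 ± 35.7 to 480 ± 35.1 (log2 fold change -0.92, edgeR adjusted P = 7.16e-10), and *MAP3K3* fell by 0.72. *MAP3K1* rose from 2100 ± 61.5 to 4183 ± 44.5 and *MAP3K9*, a mixed-lineage kinase, from 217 ± 16.4 to 418 ± 58.5.

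**Figure D5:**
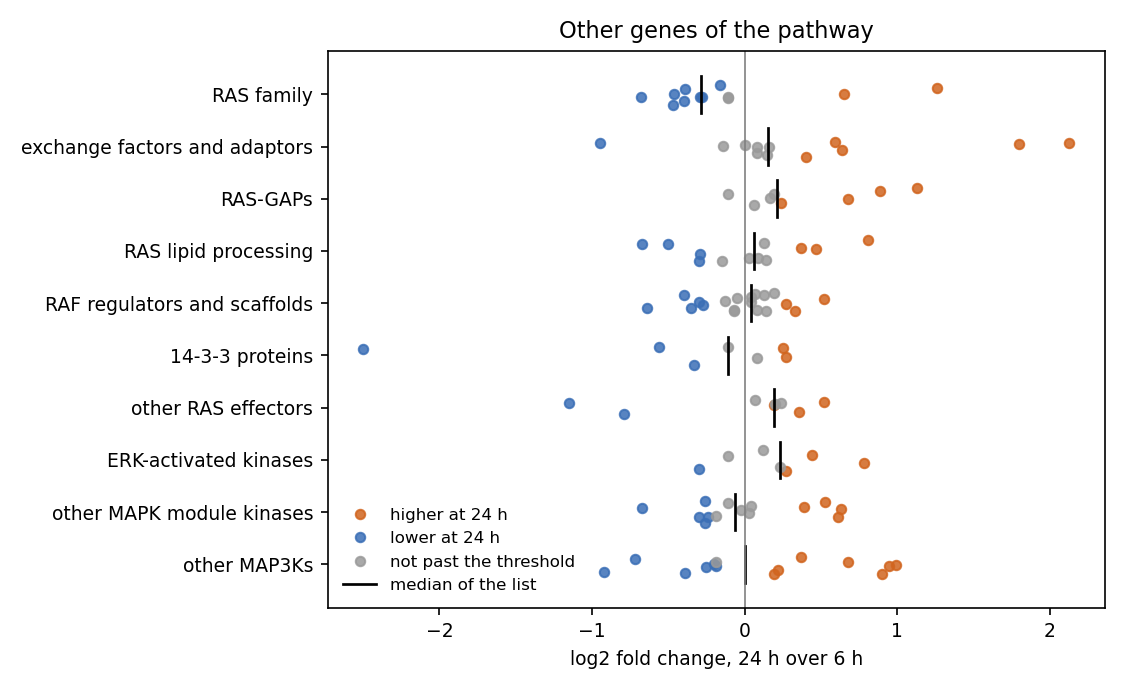
Log2 fold change of 24 h over 6 h for the 113 tested genes of the 10 lists, 1 point per gene, coloured by direction where the edgeR adjusted P was under 0.05, with a line at each list's median. The farthest points on either side belong to genes with few counts. In the RAS family 10 of 12 points are below 0, all but *MRAS* and *RRAS2*, and the RAS-GAPs have no gene called lower.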

How the data were processed

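Per the labels, total RNA of TPC1 cells was made into TruSeq libraries. The authors aligned reads with STAR (2.3 in the submitters' processing notes) to hg19 and deposited raw read counts per gene. They also deposited a normalized signal, each count divided by a size factor, and its mean, and the log2 fold change, its standard error, Wald score, and P values of their DESeq2 comparison, none of which was used. The methods name a stranded kit, and the counting program and its strand setting are not given in the sources used here.

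The counts went into edgeR 4.0.16 (R 4.3.3), with filterByExpr, TMM scaling, time as the single factor, and the quasi-likelihood test with Benjamini-Hochberg adjustment over 12876 genes. Standard errors and intervals were derived from the F statistic. Normalized counts are raw counts divided by TMM-scaled library size relative to its mean. Paralog ratios were compared with a two-sided exact permutation test. The fit was tested on simulated data in which 200 of 12876 genes changed. The simulation held far fewer changes than were called here and no GC trend, so it does not show how the fit behaves under these.

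GC content and length came from GENCODE v44, matched by Ensembl identifier for 97.6% of genes tested, and no GRCh38 position was mixed with those of hg19. DESeq2 1.42.0 and other alternatives are given at the end. The members and lists were chosen with earlier results of these data known. From each list the text names up to 2 called genes per direction, by size of change, if their mean normalized count reached 100. Some genes are not reported here. *ARAF*, *BRAF*, and *MAP2K1* have pseudogenes in GENCODE v44, with which reads could be shared.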

Additional observations from a re-analysis of the deposited data

How the results depend on the processing

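Each choice was changed in turn: the tool (DESeq2), the scaling (library size or upper quartile), the filter (none, or 10 counts in all libraries), a replicate block, removal of a GC and length trend with or without the block, the study's cutoffs, and leaving out a library. In the last, the lone library of a time point is assumed to vary like the others. The number of the 7 genes called higher, 4, became 2 with library size alone, 2 with the GC and length trend removed, 2 with the block and that removal, and 0 with the study's cutoffs, and ranged from 2 to 3 with a library left out. The number called lower, 2, became 1 with the study's cutoffs and ranged from 1 to 2 with a library left out. The study's cutoffs also lowered the numbers over all genes, from 4247 to 2238 higher and from 4196 to 2278 lower, and over the other pathway genes, from 36 to 20 higher and from 35 to 12 lower. These cutoffs add a limit on the size of the change, taken here in both directions, and replace the adjusted P with an unadjusted one. *MAP2K2* reversed to -0.03 with the GC and length trend removed, also with the block.

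For the ratios, the removal of the trend was chosen after seeing the data, and with and without the block it gave -0.39 for *HRAS* to *NRAS*, 0.39 for *ARAF* to *BRAF*, and 0.63 for *MAP2K2* to *MAP2K1*. With a library left out these were from 0.00 to 0.04, from 0.47 to 0.61, and from 0.68 to 0.85. Replicate numbers 1 and 2 occur at both times, and the labels do not say whether same-numbered libraries are paired. Their deviations correlated at 0.0691 across genes. This value includes genes with few counts, where noise is large, so it cannot decide whether they are paired. With the replicate number as a block, 4 of the 7 genes were higher and 2 lower, and 4524 genes were higher and 4448 lower in all. Of 432 values for the 36 named pathway genes, 426 kept their direction and their side of the threshold and 6 lost the call, all with the GC and length trend removed. With 2 libraries per time point the spread was estimated mostly from all genes together.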
